A study of Mus musculus with 9 samples.

Results

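Tumor-associated macrophages (TAMs) of the mouse lung were described by which messages they held most of. The RNA-sequencing series has 9 samples in 3 groups of sorted lung macrophages, and all samples of the group labelled Tumor-macrophage were used here, 3 of the 9. The mice were of the C57BL/6 strain at postnatal week 10, and tdTomato-labelled Lewis lung carcinoma (LLC) cells, which derive from a tumor of the same strain, had been implanted in their left lung. The mice of the study were female. TAMs were the CD45+ autofluorescent cells that lacked Siglec-F and carried F4/80 and CD11b. The proteins of Ptprc (CD45), Siglecf and Adgre1 (F4/80) had thus been used in choosing the cells. Whether CD11b, the protein of Itgam, was part of the sort is not stated. The labels number the samples 1 to 3 and do not name the mice behind them. The paper counts the replicates of this sequencing in mice. The spread given below is between these samples and is read as spread between mice. No other group was compared.

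A macrophage engulfs particles and dying cells, breaks them down in lysosomes and displays peptides of them to T cells on MHC class II molecules. It also handles the iron and lipid it takes up, and it secretes lysozyme, complement, chemokines and lipid carriers. In tumors, many macrophages arise from blood monocytes, and high C1q and MHC class II messages are widely seen in them.

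Levels are FPKM as deposited by the authors, in which a gene's fragments are divided by its transcript length and by the size of the library, with 1 value per gene symbol and sample. Of 24346 gene symbols, 1287 of short RNAs (microRNAs, small nucleolar RNAs and the like) were set aside, since their values divide by very short lengths. They made up at most 4.38% of summed FPKM. The other 23059 genes were ranked by their mean FPKM, and shares are percentages of their summed FPKM, which was 751769, 711240 and 769212 in samples 1, 2 and 3. The depth of the libraries, estimated from the steps between low values, was 10900000, 11300000 and 12400000 reads. Spearman correlations between the samples across genes, which are not independent replicates, lay between 0.959 and 0.962.

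The label was set beside marker genes. Of the 6 genes taken as markers of the population, C1qa, C1qb, C1qc, Aif1, Cx3cr1 and Ccr2, all had a mean FPKM of at least 10. So did 5224 of all 23059 genes and 3 of the 5 alveolar macrophage markers of the study, so this level alone does not set the population apart. Aif1, which encodes the macrophage protein IBA1, was at 578, 578 and 555 FPKM in samples 1, 2 and 3. The receptor of fractalkine, Cx3cr1, was at 86.0, 46.8 and 73.6 FPKM, and Ccr2, the receptor that brings monocytes out of the blood, was at 39.2, 33.2 and 41.7 FPKM. Csf1r, the receptor of the macrophage growth factor, was at 532 ± 71.0 FPKM (SD, n = 3). Among genes of the surface proteins that describe the population, Adgre1 was at 391 ± 62.4, Itgam at 147 ± 11.2 and Siglecf at 0.651 ± 0.190 FPKM (SD, n = 3). The proteins of Adgre1 and Siglecf were used in choosing the cells, so the levels of these genes are no test of the label. The 4 TAM markers used in the study (Cx3cr1, Ly6c2, Ccr2 and Tgfb3) summed to 193, 149 and 178 FPKM. Its 5 markers of alveolar macrophages (AM; Mrc1, Siglec1, Pparg, Marco and Siglecf) summed to 96.2, 119 and 103 FPKM, most of it Mrc1.

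Markers of other cells were low. The 8 T-cell genes summed to between 37.6 and 61.3 FPKM per sample, the 8 dendritic-cell genes to between 25.7 and 57.9, and the 6 natural-killer-cell genes to between 2.15 and 8.17, against 59235 to 78678 FPKM for 11 macrophage genes. Most of that sum was Lyz2, and the other 10 macrophage genes summed to 4931, 4301 and 5011 FPKM. The 11 neutrophil genes summed to between 95.8 and 145 FPKM, most of it S100a8 and Csf3r. The granule genes Elane, Ngp and Camp were listed at 0 in all 3 samples. Another granule gene, Mmp8, was at 6.04, 4.75 and 5.60 FPKM, and Cxcr2 was at 2.22, 2.19 and 2.85 FPKM. The 6 B-cell and plasma-cell genes summed to 83.4, 31.7 and 82.0 FPKM, and the 15 genes of lung epithelium to 44.2, 94.8 and 53.6 FPKM. The 6 genes of eosinophils, basophils and mast cells summed to 4.35, 20.3 and 12.3 FPKM. The 8 endothelial, 8 fibroblast and 10 erythroid or platelet genes each summed to 18.2 FPKM or less in every sample. In such bulk samples, fewer cells of a type and less RNA per cell cannot be told apart. Cycling genes were present, with a sum of 435, 616 and 479 FPKM over 14 genes. Stmn1 led at 157 ± 26.4 and Pcna followed at 137 ± 14.7 FPKM (SD, n = 3). The other members were lower, among them Top2a at 14.4 ± 0.583, Cdk1 at 13.7 ± 3.30 and Mki67 at 2.98 ± 0.0385 FPKM.

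**Figure D1:**
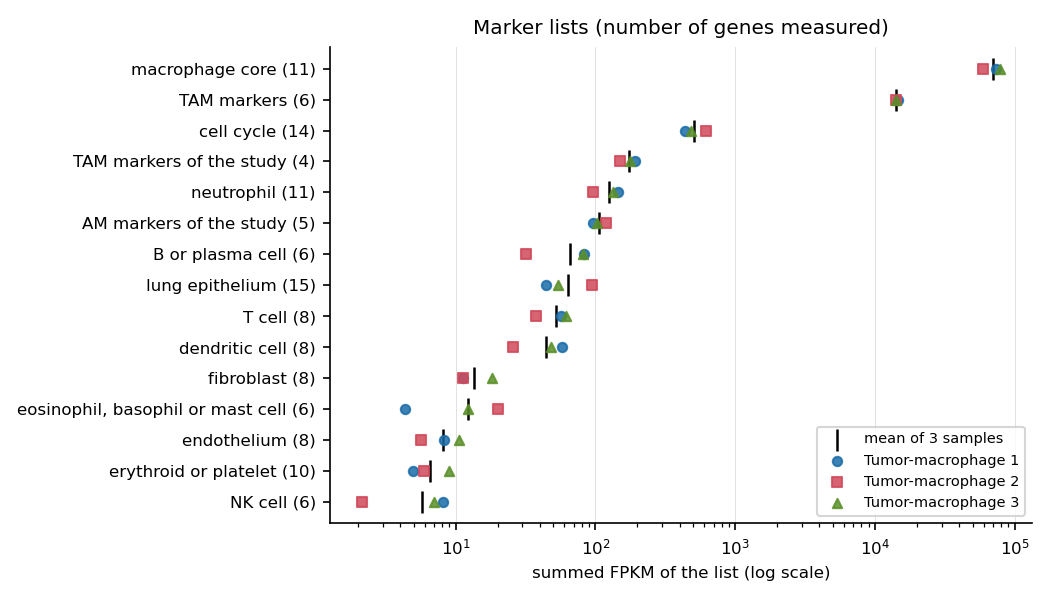
Summed FPKM (log axis) of each marker list in the 3 Tumor-macrophage samples, with the number of genes measured in brackets and a black bar at the mean. The macrophage genes sum to 59235 FPKM or more in each sample (4301 or more without Lyz2), and the lists of lymphocytes, dendritic cells, epithelium and endothelium stay below 100 FPKM.

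The transcriptome was top-heavy. One gene, Lyz2, made up 9.12%, 7.72% and 9.58% of summed FPKM in samples 1, 2 and 3. The 10 most abundant genes made up 31.7%, 26.3% and 30.6%, or 29.5% ± 2.85 (SD, n = 3), and the 100 most abundant 50.9% ± 2.37. The 1000 most abundant reached 79.6% ± 0.907. By mean FPKM, 10132 genes were at 1 or more, 5224 at 10 or more, 916 at 100 or more, 67 at 1000 or more and 8 at 10000 or more. In single samples, the number at 10 or more was 5247, 5201 and 5186. Wdr8 at 10.0 FPKM was the last gene in, and Gramd3 at 9.99 the first out. Sample 2 had the lowest share in its 10 and 100 leading genes, below both other samples.

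The leading gene, Lyz2, encodes lysozyme M, the bacterial cell-wall enzyme of macrophages, on chromosome 10 (117277331 to 117282321, minus strand, GRCm38). It was at 68553, 54934 and 73667 FPKM, a mean of 65718 ± 9683 (SD, n = 3). Its neighbour gene Lyz1, of rank 14, encodes another lysozyme and was at 6162, 4550 and 6548 FPKM. The ratio of Lyz2 to Lyz1 was 11.1, 12.1 and 11.3, and both genes were lowest in sample 2 and highest in sample 3. Their transcripts share few stretches of read length (5.96% of the 75-base windows of Lyz2), so this ratio rests mostly on sequence that differs between them.

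Apoe was second, at 33190, 20709 and 29660 FPKM, a mean of 27853 ± 6434 (SD, n = 3). It encodes apolipoprotein E, the carrier of cholesterol that macrophages release, and lies on chromosome 7. Its value in sample 2 was below both others. Cd74, the invariant chain that guides MHC class II molecules to the lysosome, came next at 31925, 23274 and 27795 FPKM. The values of Apoe and Cd74 overlapped, and their order changed in 1 of the 3 samples.

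The ferritin chains followed. Ftl1, the light chain of the iron store, was at 23895, 22030 and 23978 FPKM, and Fth1, the heavy chain, at 20010, 19024 and 21959 FPKM. Both varied less between samples than Lyz2 or Apoe did. The value of Ftl1 is uncertain, because 69.9% of its 75-base windows also occur in other transcripts, mainly its pseudogene Ftl1-ps1. For Fth1 that share was 2.32%.

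H2-Ab1, a chain of the MHC class II molecule I-A, was sixth at 16585 ± 2280 FPKM (SD, n = 3). The lysosomal protease genes Ctsd (cathepsin D) and Ctss (cathepsin S, which trims the invariant chain) were next at 11091 ± 2323 and 10143 ± 1321. Of the windows of Ctsd, 35.8% also occur in the annotated read-through transcript Gm49369. Tmsb4x, which encodes the actin-binding peptide thymosin beta-4, was at 9273 ± 416, and H2-Aa, the partner chain of I-A, closed the first 10 at 8304 ± 1436. B2m, the light chain of MHC class I, fell just outside at 7940 ± 851 and was above H2-Aa in 2 of the 3 samples.

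From rank 11 to 30 the genes were B2m, C1qb, H2-D1, Lyz1, Tyrobp, C1qc, H2-Eb1, Ccl8, Fcer1g, Actb, Ctsb, Cst3, Psap, Wfdc17, Actg1, Ppia, Itm2b, Ctsz, H2-K1 and Pfn1. Pfn1, the actin-binding protein profilin 1, was at 2266 ± 224 FPKM (SD, n = 3). The order among them was only partly fixed by the data. Among the 29 neighbouring pairs of the first 30 genes, 11 kept the same order in all 3 samples, and in 7 the values did not overlap. Of the genes in each sample's own ranking, 9 were in the top 10 of every sample, 26 were in the top 30 of every sample, and 89 in the top 100 of every sample, out of 113 that reached the top 100 of at least 1. Rpl35 at 733.6 and Atp5b at 733.3 FPKM stood on either side of rank 100.

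**Figure D2:**
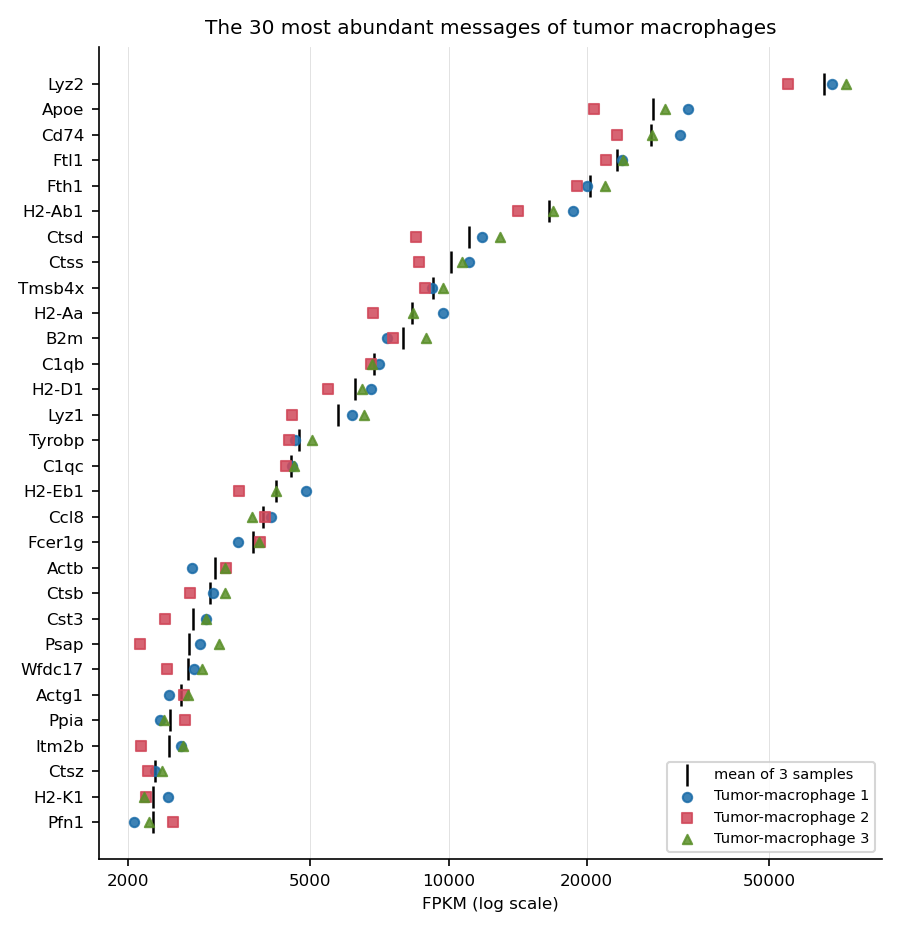
FPKM (log axis) of the 30 most abundant genes in the 3 Tumor-macrophage samples, ordered by mean, with a black bar at the mean. Lyz2 stands apart at 54934 to 73667 FPKM, and from rank 7 on the values of neighbouring genes mostly overlap.

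Transcript length bears on these ranks. The deposited values were worth whole reads when the length was taken less 200 bases, which raises short transcripts. For Ccl8, of 511 bases, this gave 1.64 times the value on its full length, 3935 against 2395 FPKM. For Wfdc17 the factor was 1.60, for Tyrobp 1.55, and for Lyz2 1.18. The first 10 genes were the same with either length.

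Messages were sorted into 21 classes by function, a gene counting once. The class lists were chosen with earlier results of these data known. Together the classes took 62.2% ± 1.30 of summed FPKM (SD, n = 3) and 76 of the 100 most abundant genes. The largest was the class of lysozymes, cystatins and other extracellular inhibitors at 10.8%, 9.15% and 11.3%, almost all of it Lyz2 and Lyz1. It also held Cst3, the protease inhibitor cystatin C, at 2775 ± 319 FPKM, and Wfdc17, a small secreted protein of the whey acidic protein family, at 2708 ± 246 FPKM (SD, n = 3).

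MHC class II came second at 8.84%, 6.86% and 7.58% of summed FPKM. The class had 12 genes, of which 9 were at a mean of 10 FPKM or more. Most of it was held by Cd74, H2-Ab1, H2-Aa and H2-Eb1, and the peptide-loading chain H2-DMb1 followed at 563 ± 38.1 FPKM. H2-Ab1 was at 18707, 14175 and 16872 FPKM, H2-Aa at 9709, 6838 and 8364, and H2-Eb1, a chain of the molecule I-E, at 4898, 3494 and 4198. Each was highest in sample 1 and lowest in sample 2, as was Cd74. Of the 9 genes, 9 were highest in sample 1 and 8 lowest in sample 2, beside 30.3% and 33.0% of the 5224 genes at 10 FPKM or more. Among the most abundant of them the ratios were steady, with H2-Ab1 at 1.93, 2.07 and 2.02 times H2-Aa and Cd74 at 1.71, 1.64 and 1.65 times H2-Ab1. H2-DMb1 ranged less, at 607, 537 and 545 FPKM.

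The promoters of MHC class II genes are known to share a Y box, a CCAAT-type motif read here as CTGATTGG. The 250 bases before the starts of the class's genes were searched on both strands in the RefSeq windows of GRCm38.p6. Of the 12 genes, 8 had a window, and 4 of these held the motif, beside 3.83% of all 32851 windows. H2-Ab1 had no window and so was not searched. A match describes the sequence and is no measured site, and its part in the levels was not tested. The stretches below run 5′ to 3′ on the gene's own strand, 30 bases each, with the motif in capitals.
H2-Aa: aagagaattttCTGATTGGttctggcgagt
H2-Eb1: ctcctttgatgCTGATTGGctcccagcact
H2-Oa: agagaactgctCTGATTGGctgcttaccgc
H2-Eb2: gctcttggctgCTGATTGGttcttcagcac
All 4 lie on chromosome 17. The stretch of H2-Aa is chr17:34287856-34287885 on the minus strand, with the motif starting 51 bases before the start of transcription. That of H2-Eb1 is chr17:34305794-34305823 on the plus strand, with the motif 62 bases before the start. In H2-Oa (chr17:34092322-34092351, plus strand) it starts 46 bases and in H2-Eb2 (chr17:34325561-34325590, plus strand) 103 bases before the start. H2-Oa, which encodes a chain of the inhibitor of peptide loading, was at 18.0, 7.49 and 9.81 FPKM, and H2-Eb2 at 0.538, 0.221 and 0.556, far below H2-Aa and H2-Eb1.

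Lysosomal proteins made up 7.23%, 6.60% and 7.36% of summed FPKM, with 15 of their 71 genes in the top 100. Ctsb (cathepsin B) was at 3060, 2731 and 3251 FPKM, Psap, the precursor of the saposins that help break down lipids, at 2865, 2122 and 3156, and Ctsz (cathepsin Z) at 2294, 2212 and 2371. Cd63 and Cd68, proteins of the lysosomal membrane, were at 2152 ± 145 and 1760 ± 90.2 FPKM (SD, n = 3). Of the 57 lysosomal genes at 10 FPKM or more, 38 were lowest in sample 2, beside 33.0% of all 5224 genes. Iron and heme genes made up 6.11%, 6.05% and 6.23%, nearly all of it ferritin. Hmox1, the heme-degrading enzyme, was at 564, 821 and 504 FPKM, and it was highest in sample 2 although the class as a whole was lowest there.

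Apolipoproteins and lipid handling made up 4.83%, 3.30% and 4.28%, which was mainly Apoe. The fatty-acid-binding protein gene Fabp5 was at 997 ± 93.5 FPKM, the lipid-droplet coat gene Plin2 at 664 ± 29.6 and the phospholipid transfer protein gene Pltp at 549 ± 111 (SD, n = 3). The actin and tubulin cytoskeleton made up 4.30%, 4.84% and 4.51%, and cytosolic ribosomal proteins 4.12%, 4.82% and 4.52% over 89 genes, led by Rpl41 at 1403 ± 134 FPKM. The ribosomal share depended on the length used, and with the full length it was 3.74%. MHC class I and the immunoproteasome made up 2.56%, 2.52% and 2.59%, with H2-D1 at 6239 ± 680 and H2-K1 at 2268 ± 158 FPKM. The nuclear-encoded respiratory chain made up 2.38% ± 0.260 over 86 genes, led by Cox6b1 at 735 ± 57.0 FPKM.

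Complement made up 2.06%, 2.17% and 1.98%, of which the 3 chains of C1q were 1.84%, 1.89% and 1.75%. C1q is the recognition molecule of the classical complement pathway, built of 3 chains, and its genes lie side by side on chromosome 4. C1qb was at 7051, 6789 and 6806 FPKM, C1qc at 4559, 4429 and 4609, and C1qa at 2232, 2206 and 2075. Their summed level, 13843, 13424 and 13490 FPKM, differed by less between samples than that of Lyz2 or MHC class II. C1qb was 3.16, 3.08 and 3.28 times C1qa, and the 3 genes had no 75-base window in common with another transcript.

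Smaller classes differed in how they ran over the samples. Glycolysis made up 0.736%, 1.12% and 0.806%. Gapdh was at 1047, 1517 and 1201 FPKM and Ldha, the lactate dehydrogenase gene, at 838, 1263 and 981. Of its 15 genes at 10 FPKM or more, 15 were highest in sample 2, beside 39.7% of all 5224 genes. This was not particular to glycolysis. The nuclear-encoded respiratory chain had 59 of 76 highest in sample 2, ubiquitin and proteasome 34 of 43, and ribosomal proteins 46 of 85. Lysosomal proteins, with 8 of 57, did not lean that way. Interferon-stimulated genes made up 0.461%, 0.722% and 0.484%, and 29 of 33 were highest in sample 2. Their leading gene Ifitm3, an antiviral membrane protein, was at 828, 1622 and 953 FPKM. Immediate-early genes, which respond within minutes to stress and to cell isolation, made up 0.555%, 0.436% and 0.512%. Of these, 18 of 21 were lowest in sample 2, among them Dusp1 at 733, 475 and 645 and Fos at 651, 417 and 568 FPKM. Of all 5224 genes, 33.0% were lowest in sample 2. Chaperones took 1.37% ± 0.0929, Fc receptors and their adaptors 1.42% ± 0.0639, and antioxidant genes 1.16% ± 0.0538 (SD, n = 3). These orders over samples are descriptions with no test, and their cause was not tested.

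**Figure D3:**
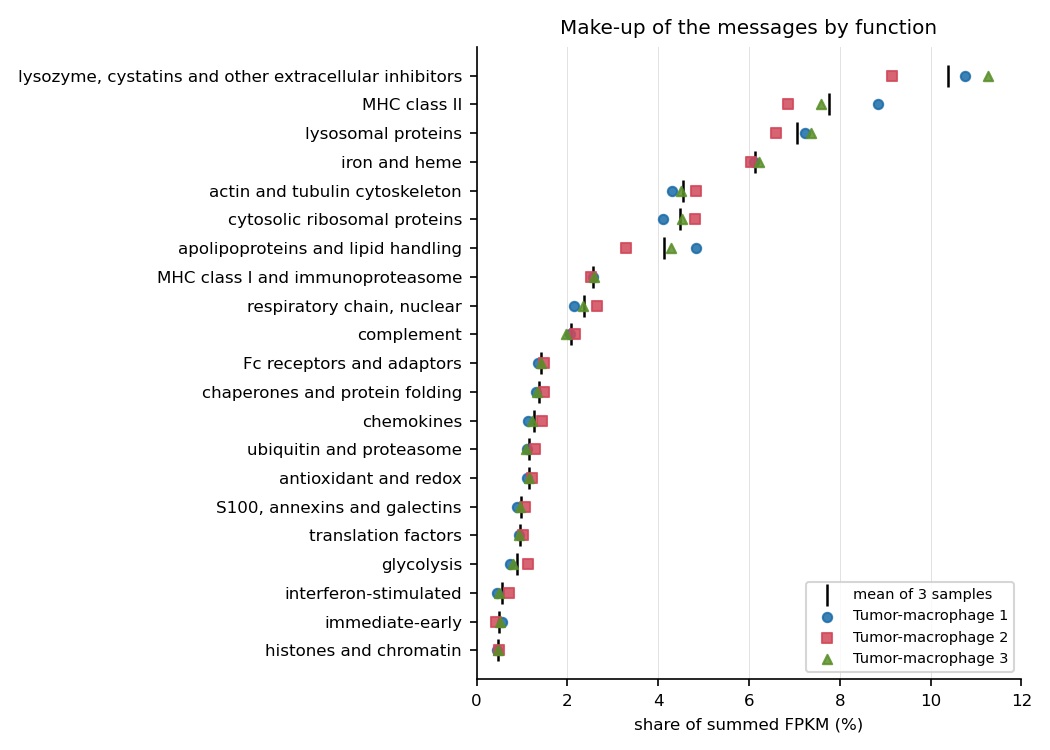
Share of summed FPKM (%) of each of the 21 functional classes in the 3 Tumor-macrophage samples, ordered by mean, with a black bar at the mean. The classes of lysozymes, MHC class II, lysosomal and iron genes lead, and all of these are lowest in sample 2. The apolipoprotein, MHC class I and immediate-early classes are also lowest there.

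Of the 100 most abundant genes, 24 fell in no class. They included Cd52, Crip1, Sh3bgrl3, Spp1, Cstb, Cd14, AW112010, Ly6e and Gm1821, named here after their values were seen. Crip1, a LIM-domain protein gene of 445 bases, was at 1638 ± 168 FPKM, and Cstb, the cytosolic protease inhibitor cystatin B, at 1376 ± 119 (SD, n = 3).

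A list of 138 genes of secreted proteins made up 19.6%, 16.8% and 19.5% of summed FPKM, or 18.6% ± 1.58 (SD, n = 3). Of its members, 84 were at a mean of 10 FPKM or more and 21 were under 1. Of the list, 8 were among the 30 most abundant genes and 12 among the 100. Because the list was chosen with earlier results of these data known, these counts and shares depend in part on that choice. Lyz2 alone was 47.3% of the list, and with Apoe 67.4%. The first 9, Lyz2, Apoe, C1qb, Lyz1, C1qc, Ccl8, Cst3, Wfdc17 and C1qa, made up 88.1%.

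Chemokines made up 1.13%, 1.45% and 1.23% of summed FPKM over 22 secreted members. Ccl8, a CC chemokine that attracts monocytes and lymphocytes, was far ahead at 4096, 3975 and 3735 FPKM, and these values lay close together. It is of rank 18 on chromosome 11 (82115185 to 82116799, plus strand). Ccl6 was at 887, 1678 and 1135 FPKM and Ccl7, another ligand of monocyte receptors, at 451, 819 and 682. Both were lowest in sample 1 and highest in sample 2, unlike Ccl8, so that Ccl8 stood at 9.08, 4.85 and 5.47 times Ccl7. Ccl12 at 185, 416 and 321 FPKM and Ccl2 at 190, 357 and 308 had the same order as Ccl7. Ccl4 was lowest in sample 2, at 576, 434 and 786 FPKM, and so was Ccl3 at 159, 117 and 220. Ccl5 (375 ± 49.2), Cxcl16 (456 ± 27.1) and Cxcl2 (248 ± 20.7 FPKM, SD, n = 3) varied less.

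Among cytokines and growth factors, Spp1, which encodes osteopontin, led at 1415, 1257 and 1703 FPKM, rank 47. Il1b was at 556, 315 and 560 FPKM and its antagonist Il1rn at 220, 240 and 241. Osm (oncostatin M) was at 126 ± 22.5, Tnf at 34.1 ± 0.819 and Il10 at 5.06 ± 2.00 FPKM (SD, n = 3). Il6 was at 4.80, 1.49 and 4.47 FPKM, and Csf1 at 1.76 ± 0.532. Growth factors were modest in level, with 0.0707% ± 0.00646 of summed FPKM in 21 genes. Metrnl (meteorin-like) led at 160 ± 8.07 FPKM, followed by Gdf15 at 121 ± 24.6. Vegfa, the vascular growth factor, was at 72.4, 44.8 and 82.1 FPKM, and Igf1 at 44.6, 26.8 and 50.5. Inhba, the subunit of activin A that the study centres on, was just under the level of 10, at 10.8, 10.9 and 7.52 FPKM.

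Grn, the precursor of the granulins, was at 1626, 1576 and 1479 FPKM. Pla2g7, a phospholipase that inactivates platelet-activating factor, was at 648, 629 and 672, and Tgfbi, a matrix protein induced by TGF-beta, at 556, 743 and 516 FPKM. Cfp (properdin), which stabilizes the alternative complement pathway, was at 492, 721 and 596 FPKM. Matrix metalloproteinase genes were lower, with Mmp12 at 63.4 ± 10.0 and Mmp19 at 32.4 ± 2.59 FPKM (SD, n = 3). Sepp1 (selenoprotein P) at 786 ± 186 and Srgn (serglycin) at 784 ± 76.1 FPKM, whose products are also secreted, were not in the list.

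A list of 183 surface genes, 178 of them measured under these symbols, made up 16.6%, 14.8% and 15.6% of summed FPKM, or 15.7% ± 0.904 (SD, n = 3). Of these, 157 were at a mean of 10 FPKM or more. Of the list, 10 were among the 30 most abundant genes and 19 among the 100. Within the list, antigen presentation had the largest share, with 10.9%, 8.86% and 9.72% in 7 genes (Cd74, H2-Ab1, H2-Aa, B2m, H2-D1, H2-Eb1 and H2-K1). The list was chosen with earlier results of these data known, and all 7 of these genes were among the 100 most abundant. This lead and the counts above thus follow in part from the choice of genes. Part of the protein of Cd74 stays inside the cell.

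Next came the signalling adaptors Tyrobp (DAP12) at 4623, 4479 and 5039 FPKM and Fcer1g (the Fc receptor gamma chain) at 3484, 3887 and 3867. They transmit the signals of many activating receptors, among them Trem2, which senses lipids and was at 393, 296 and 386 FPKM, and the Fc receptor Fcgr3, at 1009, 989 and 1007. The inhibitory Fc receptor Fcgr2b was at 582 ± 48.4 and Fcgr1 at 86.8 ± 9.79 FPKM (SD, n = 3). Both adaptors lay above every Fc receptor of the list. Itm2b, a widely expressed membrane protein, was at 2461 ± 285 and the small glycoprotein gene Cd52 at 1879 ± 97.3.

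Among receptors for microbes and debris, Cd14, the co-receptor of lipopolysaccharide, led at 1428, 1074 and 1412 FPKM. Gpnmb, a glycoprotein of lipid-laden macrophages, was at 775, 566 and 1030, Msr1 at 244, 380 and 291 and Tlr2 at 362, 251 and 300 FPKM. Axl and Mertk, receptors for dying cells, were at 136 ± 22.6 and 40.6 ± 7.98, and Mrc1, the mannose receptor, at 70.0 ± 8.45 (SD, n = 3). Cd163 was at 2.04 ± 0.982 and Marco at 6.61 ± 2.72. The C-type lectins Clec4n (dectin-2) and Clec7a (dectin-1) were at 483 ± 40.7 and 414 ± 42.9 FPKM.

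Of the inhibitory or paired receptors, Lilrb4a was highest at 893 ± 45.9, and Lilr4b followed at 422 ± 12.4 FPKM. The checkpoint ligand gene Cd274 (PD-L1) was at 75.6, 73.3 and 71.6 FPKM, and Pdcd1lg2 (PD-L2) at 3.53, 4.77 and 2.57. The costimulatory gene Cd86 was at 173 ± 9.76, above Cd40 at 70.9 ± 9.83 and Cd80 at 12.8 ± 3.88 (SD, n = 3). Cd83 was at 783, 445 and 791 FPKM. Among receptors for chemokines and complement fragments, Ccrl2 (431 ± 124), C5ar1 (342 ± 47.3) and C3ar1 (187 ± 16.5) were above Cx3cr1 and Ccr2.

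**Figure D4:**
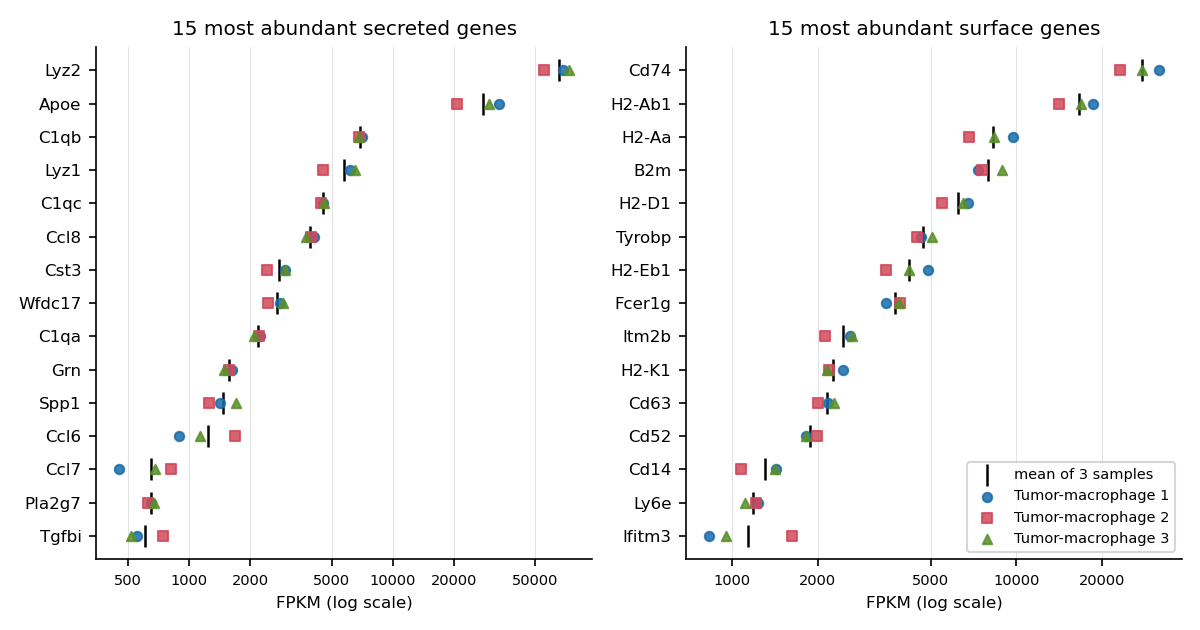
FPKM (log axis) of the 15 most abundant genes of the secreted list (left) and of the surface list (right) in the 3 Tumor-macrophage samples, with a black bar at the mean. Lyz2 and Apoe lead the secreted list, Cd74 and H2-Ab1 the surface list, and Ccl6, Ccl7 and Ifitm3 show the widest relative spread.

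Most genes differed little between the samples. A gene was called uneven when its highest sample was at least 2-fold above its lowest on the log2(FPKM + 1) scale, and only genes with a mean FPKM of at least 10 were examined. This held for 54 of 5224 genes, 1.03%. Without sample 2 the number was 9 and without sample 1 it was 25. A range over fewer samples can only be narrower for a given gene. The median coefficient of variation was 9.27%, beside 3.50% for counting error at the estimated depth. Among genes of 10 to 30 FPKM these values were 10.3% and 4.48%, and among the 67 genes of 1000 FPKM or more 8.71% and 0.602%, with 0 uneven genes. Median counting error was below the median spread at every level examined. PCR copies are counted as reads, so this error is a lower limit.

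Of the 54 genes, 15 were highest in sample 1, 30 in sample 2 and 9 in sample 3, and 27, 18 and 9 were lowest there. Of all 5224 genes, 1585, 2073 and 1566 were highest in samples 1, 2 and 3. In both sets the highest value was most often that of sample 2. Pf4 was the last gene within the limit, at 290, 583 and 527 FPKM. Ccl17 was the first outside it, at 15.6, 8.29 and 17.5 FPKM.

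Rps27, a ribosomal protein gene, had the widest range, at 4.93, 271 and 140 FPKM. Its near copy Rps27rt was at 1022, 694 and 1117 FPKM, and 90.3% of the 75-base windows of Rps27rt also occur in Rps27, while 48.5% of those of Rps27 occur in Rps27rt. The sum of both was 1027, 965 and 1257 FPKM, and the split of reads between the copies is uncertain for the shared windows. Jchain, the joining chain of secreted antibodies, came next at 25.0, 0.139 and 33.5 FPKM, about 327, 2 and 497 reads. The B-cell gene Cd79a was also lowest in sample 2, at 22.1, 10.9 and 18.3 FPKM. The surfactant protein gene Sftpc, a product of alveolar type 2 cells, was at 6.19, 64.1 and 10.8 FPKM. Sftpa1 was at 0.105, 3.88 and 0.374, and Sftpd at 0.161, 0.704 and 0.287. Other genes of the epithelial list had another order. Sftpb was at 0.0699, 0.193 and 0.374 and Hopx at 22.3, 16.9 and 29.7 FPKM, both highest in sample 3. The airway club-cell gene Scgb1a1 was at 11.7, 3.70 and 6.47, and Foxj1 was listed at 0 in all samples. The part of such cells, or of RNA from them, in these values was not tested.

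Among macrophage genes, Arg1, which encodes the enzyme arginase 1 that consumes arginine, was at 40.8, 325 and 120 FPKM, 7.97-fold between samples 1 and 2. Chil3, a chitinase-like secreted protein, was at 128, 430 and 150 FPKM, and 14.2% of its windows also occur in other transcripts. Retnla, a resistin-like protein induced by interleukin-4, was at 26.3, 56.1 and 33.1, and Folr2, a folate receptor of resident macrophages named after its values were seen, at 37.2, 95.4 and 54.7 FPKM. These 4 genes were highest in sample 2 and lowest in sample 1. Ear2, an eosinophil-associated ribonuclease, was lowest in sample 2, with 21.1, 8.59 and 32.6 FPKM, but 23.4% of its windows occur in related genes. Nos2, the inducible nitric oxide synthase, was at 6.53, 15.3 and 3.98 FPKM.

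Further genes with their highest value in sample 2 were Tarm1, an activating receptor of myeloid cells, at 5.40, 26.3 and 7.38 FPKM, and Ch25h, which makes 25-hydroxycholesterol, at 5.26, 20.7 and 5.95. Upp1, a uridine phosphorylase, was at 9.45, 29.7 and 8.19, and AA467197 at 74.2, 192 and 83.6. The chemokine gene Cxcl13 was at 5.27, 18.1 and 11.9, Ifitm1 at 5.37, 17.8 and 14.0, Ms4a8a at 5.34, 17.6 and 10.6 and the lectin Fcna (ficolin A) at 8.50, 23.8 and 13.3 FPKM. Ly6a, at 444, 812 and 342 FPKM, was the most abundant uneven gene.

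Genes with their lowest value in sample 2 included S100a9 at 22.8, 7.75 and 14.5 FPKM, a calcium-binding protein gene of neutrophils and monocytes, and Cd2 at 26.0, 9.53 and 21.1, a receptor of lymphocytes. The nuclear receptor gene Nr4a3 was at 21.2, 7.36 and 15.7 and Gm13710 at 23.4, 7.03 and 13.9. The dendritic-cell genes Ccr7 (33.6, 14.3 and 27.9) and Cd209a (16.9, 6.92 and 14.2 FPKM) had the same order. Of the other dendritic-cell genes, all much lower, Clec9a, Itgae and Zbtb46 were also lowest in sample 2. Flt3 and Siglech were lowest in sample 1 and Xcr1 in sample 3. In the T-cell list, Cd3e, Cd3d and Cd3g were lowest in sample 2, Cd8a, Lck and Il7r in sample 1, and Bcl11b in sample 3. Hspa1b, a heat-shock protein gene, was highest in sample 3 at 5.87, 9.38 and 20.5 FPKM, but 55.8% of its windows also occur in Hspa1a, and Tgoln2 was lowest in that sample at 18.0, 13.7 and 6.47 FPKM.

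**Figure D5:**
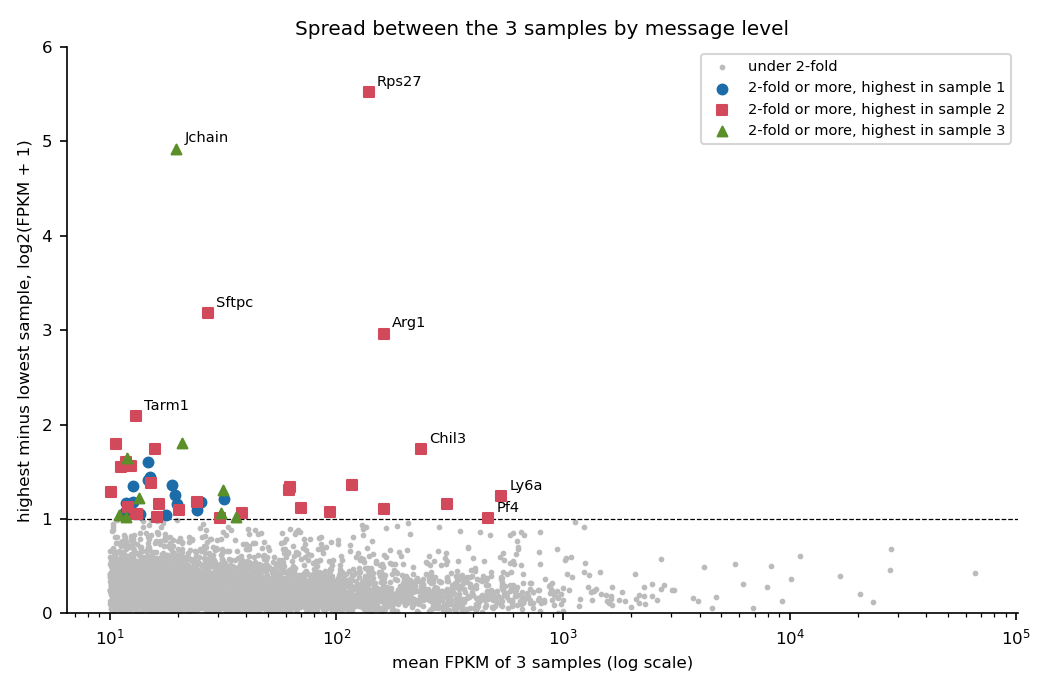
Difference between the highest and the lowest of the 3 samples on the log2(FPKM + 1) scale against mean FPKM (log axis) for the 5224 genes at 10 FPKM or more. Coloured symbols mark the 54 genes at or above 1 (dashed line) by the sample in which they were highest, most often sample 2, and no gene of 1000 FPKM or more reaches the line.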

How the data were processed

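RNA-seq of sorted TAMs was analysed in the 3 samples labelled Tumor-macrophage. SMART-Seq HT cDNA went into Nextera libraries. The authors sequenced 75 bases single-end, mapped to mm10 with TopHat2 2.1.1 and Bowtie2, and deposited FPKM from Cufflinks (Cuffdiff 2.2.1 in the submitters' processing notes). The annotation, strand setting and treatment of multi-mapped reads were not given in the sources used here. Files of the other groups were not used. Depth was estimated from low values of genes with 1 transcript: 74.7% to 78.2% fell within 0.1 of whole reads, beside 13.0% to 13.9% at other depths. Since 1 group was described, no test was run, and errors are SDs over 3 samples. Lengths, positions and shared 75-base windows came from GENCODE M21 (GRCm38), which matched 98.5% of symbols. Members and gene lists were chosen with earlier results of these data known, and Rps3a1 and Rps27rt joined the ribosomal list after the files were read. Genes were named by rule: the 30 most abundant, the 15 leading secreted and surface genes, the 20 most uneven, class leaders, list members and genes next to a threshold. Folr2, Sepp1, Srgn and the unclassified genes of the top 100 were named after their values were seen. Python 3.11.15, numpy 2.4.6, pandas 2.3.3 and matplotlib 3.10.9 were used.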

Additional observations from a re-analysis of the deposited data

How the results depend on the processing

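Shares were recomputed with short RNA genes in the total and ranking, as shares of reads (FPKM times length) and without each sample in turn. Division by the full transcript length was added after the data were seen. The share of reads changed every share by more than 1 SD: the 10 leading genes took 21.9%, the 100 leading 39.8%, secreted genes 13.3%, surface genes 13.3%, MHC class II 5.52%, C1q 1.05% and ribosomal proteins 1.74%. By reads, long transcripts weigh more, and 8 of the first 10 and 67 of the first 100 genes were the same. Division by the full length moved only the ribosomal share by more than 1 SD, to 3.74%. Short RNA genes moved no share by more than 1 SD. Leaving out 1 of 3 samples cannot move the mean share of a fixed gene set by 1 SD, so it was no check of these shares. With a sample left out, the share of the 10 leading genes lay between 28.6% and 31.2%. The number of genes at 10 FPKM or more stayed within 1.5 times of 5224 under each alternative run. The 54 uneven genes became 251 with a mean of at least 1 FPKM, 316 with no filter and 366 with a fold of 1.5. They were 64 with a pseudocount of 0.1, 57 with median ratios, 79 after rescaling to TPM and 43 with the full length. Without 1 sample there were between 9 and 44 (9 without sample 2, 25 without sample 1), of which 8 and 23 were among the 54. No paired analysis was possible because only 1 group was described and no result came from a test. Mitochondrially encoded genes were not analysed here, so the alternative without them gave no value. Depth limits the low genes most: at 10 to 30 FPKM the median was 498 reads per gene.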

Other observations

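The levels of 64 transcription factor genes, a list written after the values were seen, summed to 0.780% ± 0.0470 of summed FPKM (SD, n = 3), and 49 of them were at a mean of 10 FPKM or more. Cebpb, a factor of macrophage activation, was highest at 712, 630 and 664 FPKM, followed by the AP-1 genes Junb at 568 ± 88.3 and Fos at 545 ± 119. Spi1 (PU.1), which sets the myeloid lineage, was at 243, 254 and 222 FPKM. Among the interferon regulatory factors, Irf1 (163 ± 23.1), Irf5 (124 ± 8.36) and Irf8 (106 ± 9.35) had higher means than Irf7 (95.3 ± 21.9). In sample 2, however, Irf7 at 121 was above Irf8 at 105 FPKM. Irf4 was at 0.970 ± 0.522 FPKM. Pparg was at 11.8 ± 1.19 and Gata6, a factor of peritoneal macrophages, was listed at 0 in samples 1 and 2 and at 0.161 FPKM in sample 3. Hif1a was at 72.7, 85.1 and 95.6 FPKM.

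In a list of 6 genes of arginine use, also written after the values were seen, 3 were at a mean of 10 FPKM or more, and Arg1 alone of these was uneven. Odc1, which turns the product of arginase into polyamines, was at 145, 135 and 160 FPKM and Arg2 at 52.7, 46.8 and 51.9. The ratio of Arg1 to Nos2 was 6.24, 21.3 and 30.1. The 4 genes of a chitinase-like and resistin-like list, likewise written after the values were seen, summed to 176, 495 and 216 FPKM. Of these, Chil3, Retnla and Ear2 were uneven, beside 1.03% of all genes, but they were known to be so when the list was written. The 16 genes of a hypoxia list, also written with the values known and many of them glycolytic, summed to 4999, 7195 and 5650 FPKM. In that list Bnip3 was at 35.0, 88.0 and 61.8 FPKM and highest in sample 2, while Vegfa was lowest there.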
